A study of Mus musculus with 4 samples.

Results

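The anaphase-promoting complex (APC/C) and its inhibitor Emi1, encoded by *Fbxo5*, were followed in an immunoprecipitation of CUGBP1-associated RNA from C2C12 cells. The 10 genes examined were the inhibitor *Fbxo5*, the activators *Cdc20* and *Fzr1*, and the subunit genes *Cdc16*, *Cdc23*, *Cdc27*, *Anapc1*, *Anapc2*, *Anapc4* and *Anapc10*. They were taken by name, and a probe set counted only if its annotation named exactly 1 gene. Each gene had 1 such probe set, so that 10 of 21044 tested probe sets (10 of 19452 genes) belong to the group.

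C2C12 is an immortalised mouse myoblast line. The cells used were the LKO1 derivative, a stable line with an empty lentiviral vector that was kept in puromycin, and both groups came from it. They were proliferating and below 70% confluency, which holds back differentiation. RNA was recovered from lysate with the CUGBP1 antibody 3B1 (CUGBP1 IP, 2 arrays) or with normal IgG (control IgG, 2 arrays), and the comparison asks which transcripts come down with CUGBP1. CUGBP1, the product of *Celf1*, is an RNA-binding protein that prefers GU-rich sequence and promotes mRNA decay. The arrays of input RNA were not used here, so the level of each transcript in the lysate is not given. Nor can a transcript recovered weakly from every cell be told apart from one recovered well from a few cells of the bulk lysate.

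The APC/C is a ubiquitin ligase that drives cells out of mitosis by marking securin and mitotic cyclins for destruction by the proteasome. Its activator Cdc20 works in mitosis, and the related activator Cdh1, encoded by *Fzr1*, works in late mitosis and G1. Emi1 restrains the complex from the start of S phase until mitotic entry, when the kinase Plk1 and a ubiquitin ligase of the SCF class remove it. In myoblasts the form with Cdh1 has been linked to the cell cycle exit that precedes fusion.

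Values are probe set intensities divided by the 5th percentile of the same array, so a probe set without transcript reads about 1. Over the tested probe sets the array medians were 1.31 and 1.50 in CUGBP1 IP, against 1.08 and 1.22 in control IgG. Background was read from the probe sets for olfactory and vomeronasal receptors (1203 in number), whose 95th percentile on each array lay between 1.09 and 1.29. The myoblast markers fitted the labelled line, with 5 of 6 above background on all 4 arrays. Of 15 measured markers of adipocytes, endothelial cells, leukocytes and neurons, 0 were above background on all 4 arrays. This held for 7063 of all 19452 tested genes. The adipocyte marker *Plin1* and the neuron marker *Gad1* were above it on 3 arrays, as was the myoblast marker *Cdh15*. The neuron marker *Rbfox3* was above it on 2.

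The transcript of the inhibitor was the most enriched of the 10, and that of the activator *Fzr1* came next. *Fbxo5* (probe set 10361375) read 18.11 and 32.76 in CUGBP1 IP, against 1.19 and 2.03 in control IgG. The groups were well apart, and all 4 values were above the background of their arrays. The means were 25.4 ± 10.4 in CUGBP1 IP and 1.61 ± 0.594 in control IgG (SD, n = 2 arrays each), a signal-to-negative ratio of 15.8, where this ratio is the CUGBP1 IP mean over the control IgG mean. It ranked 8 among the 21044 probe sets. *Fbxo5* rose by 3.97 on the log2 scale (SE 1.08, 95% interval 1.86 to 6.08, limma adjusted p = 0.0286). It was the only one of the 10 transcripts that limma called higher, 1 of 10 where the call was made for 1.95% of all tested probe sets. limma called 0 of the 10 lower, also 0 at an unadjusted p under 0.05, with 0.138% called lower over all tested probe sets. Like every other call, that of *Fbxo5* was lost when any array was left out, in fits that leave 1 array in a group. The *Fbxo5* difference then stayed between 3.54 and 4.40. Its call was also lost, again with every other, when the spread was not modelled on intensity (limma adjusted p = 0.143).

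**Figure D1:**
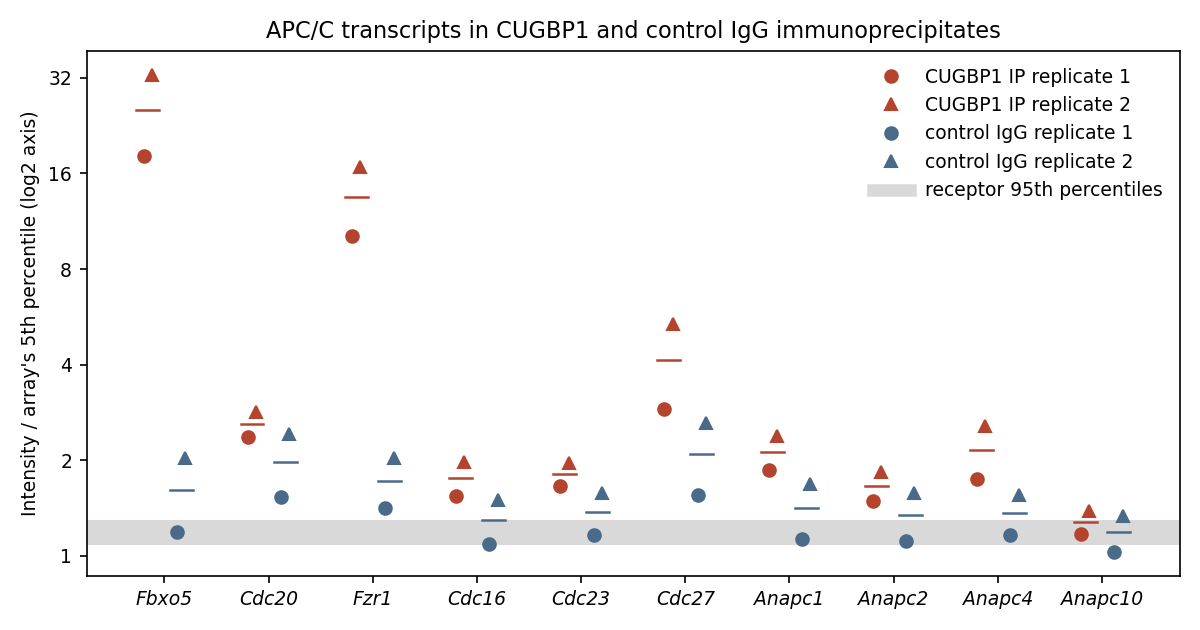
Intensity relative to the 5th percentile of the array (log2 axis) of the 10 transcripts, with 1 point per array, red for CUGBP1 IP and blue for control IgG, circles for replicate 1 and triangles for replicate 2, lines at the means of 2 arrays and a grey band over the receptor 95th percentiles of the 4 arrays. *Fbxo5* and *Fzr1* stand apart in CUGBP1 IP, with means of 25.4 and 13.5, while their control IgG means of 1.61 and 1.72 lie among those of the other members.

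Of the 2 activator transcripts, *Fzr1* had a high ratio and *Cdc20* a ratio near that of the array as a whole. *Fzr1* (probe set 10371159) read 10.20 and 16.71 in CUGBP1 IP, against 1.41 and 2.03 in control IgG. Its groups did not overlap, and its ratio of 7.82 ranked 95. The log2 difference was 2.95 (SE 0.92, 95% interval 1.15 to 4.75), which narrowly missed the threshold (limma adjusted p = 0.0545). It passed with arrays divided by their medians (limma adjusted p = 0.0239), with quantile normalization (0.00462), with an offset of 1 (0.0419) and among probe sets that exceeded background on every array (0.0229), and stayed uncalled without any of the 4 arrays. *Cdc20* (probe set 10515744) read 2.36 and 2.84 in CUGBP1 IP, against 1.53 and 2.42 in control IgG. These groups overlapped, since control IgG replicate 2 was above CUGBP1 IP replicate 1. The ratio was 1.32, close to the median of 1.22 over all tested probe sets. The log2 difference was 0.43 (SE 0.45, 95% interval -0.46 to 1.31, limma adjusted p = 0.429). Among probe sets above background on every array, as *Cdc20* was, the median log2 difference was 0.73. With quantile normalization *Cdc20* had a difference of -0.64 (limma adjusted p = 0.137). The difference between the activators was not tested.

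*Cdc27*, *Cdc16* and *Cdc23* encode the tetratricopeptide repeat subunits that form the arched part of the complex and bind the activators. *Cdc27* read 2.91 and 5.38 in CUGBP1 IP, against 1.56 and 2.63 in control IgG. This was the highest ratio among the subunits, 1.98, and the log2 difference was 0.97 ± 0.59 (SE), which did not pass (limma adjusted p = 0.221). The groups were separated by a narrow gap. *Cdc16* read 1.54 and 1.97 in CUGBP1 IP, against 1.09 and 1.50 in control IgG, a ratio of 1.36. *Cdc23* read 1.66 and 1.96 in CUGBP1 IP, against 1.16 and 1.58 in control IgG, a ratio of 1.32. In both the lower CUGBP1 IP array was barely above the higher control IgG array, and limma called neither (adjusted p = 0.203 and 0.249).

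*Anapc1* and *Anapc4* encode scaffold subunits, on which the catalytic module and the repeat subunits are assembled. *Anapc4* read 1.74 and 2.56 in CUGBP1 IP, against 1.16 and 1.56 in control IgG. The log2 difference was 0.65 (SE 0.31, 95% interval 0.04 to 1.26), and it did not pass after adjustment (limma adjusted p = 0.156). *Anapc1* read 1.86 and 2.38 in CUGBP1 IP, against 1.13 and 1.69 in control IgG, a ratio of 1.50 (limma adjusted p = 0.176). The groups of both scaffold transcripts were apart. *Anapc2* encodes the cullin subunit of the catalytic module and read 1.49 and 1.84 in CUGBP1 IP, against 1.11 and 1.58 in control IgG. Its groups overlapped, and its ratio of 1.24 was close to the median of 1.22 over all tested probe sets (limma adjusted p = 0.313). *Anapc10*, which encodes the subunit that helps to recognise the destruction box of substrates, read 1.17 and 1.38 in CUGBP1 IP, against 1.03 and 1.34 in control IgG. It was above background on 2 of the 4 arrays, replicate 2 of each group. Its ratio of 1.08 was the lowest of the 10 and the only one below the median of all probe sets (limma adjusted p = 0.540).

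**Figure D2:**
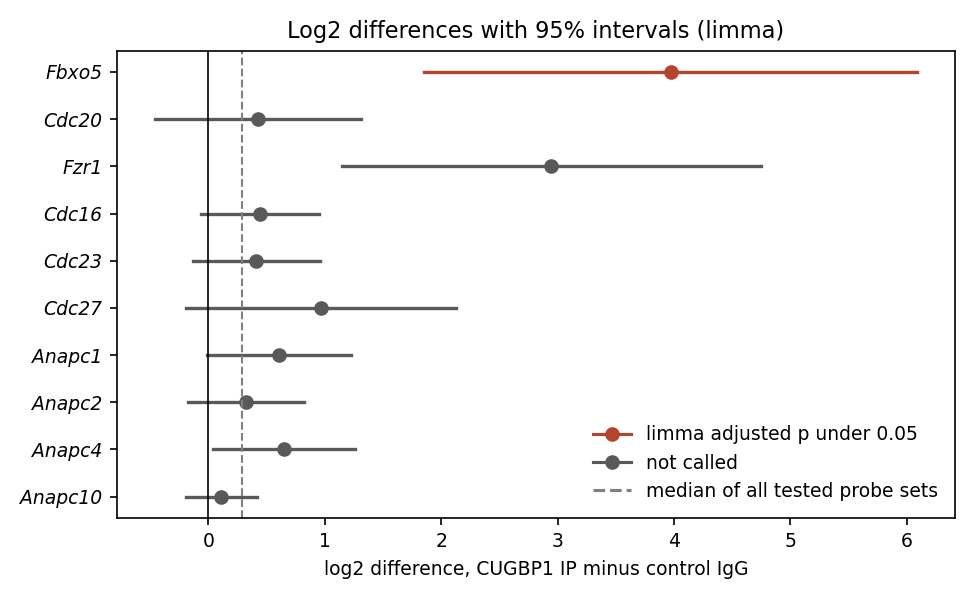
Log2 differences of the 10 transcripts, CUGBP1 IP minus control IgG, as points with 95% intervals from limma over 4 arrays, red where the adjusted p was under 0.05. The intervals of *Fbxo5* (1.86 to 6.08) and *Fzr1* (1.15 to 4.75) lie to the right of the dashed line at the median of all tested probe sets, 0.29, whereas those of the other 8 include it.

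For the 7 subunit transcripts together, the ratios ran between 1.08 and 1.98 with a median of 1.36. The median log2 difference was 0.45, against 0.29 for all tested genes, many of them at background. Among probe sets above background on at least 2 arrays, as all 7 were, the median was 0.54. Among those above it on all 4 arrays, as 5 of the 7 were, the median was 0.73. None of the 7 was called by limma (0), and 1 had an unadjusted p under 0.05. All 10 ratios were above 1, which held for 93.3% of all tested probe sets. The groups did not overlap, with CUGBP1 IP higher, for 7 of the 10 transcripts, close to the 66.3% of all probe sets for which this was so. They did not overlap with CUGBP1 IP lower for 0, against 0.95% of all. An unadjusted p under 0.05 with a higher value in CUGBP1 IP was reached by 3 of 10, *Fbxo5*, *Fzr1* and *Anapc4*, and by 28.6% of all probe sets. The study took the top 5% of ratios as CUGBP1-associated. The study ranked its own set of mRNAs, so its limit and membership can differ from those here. Over the probe sets tested here the limit was 2.57, passed by *Fbxo5* and *Fzr1*, 2 of 10 against 5% of all probe sets by construction. Both stayed in the top 5% with each array left out, with arrays divided by their medians, with quantile normalization and after subtraction of the receptor median. *Cdc27*, the next in order, was ranked 2254.

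**Figure D3:**
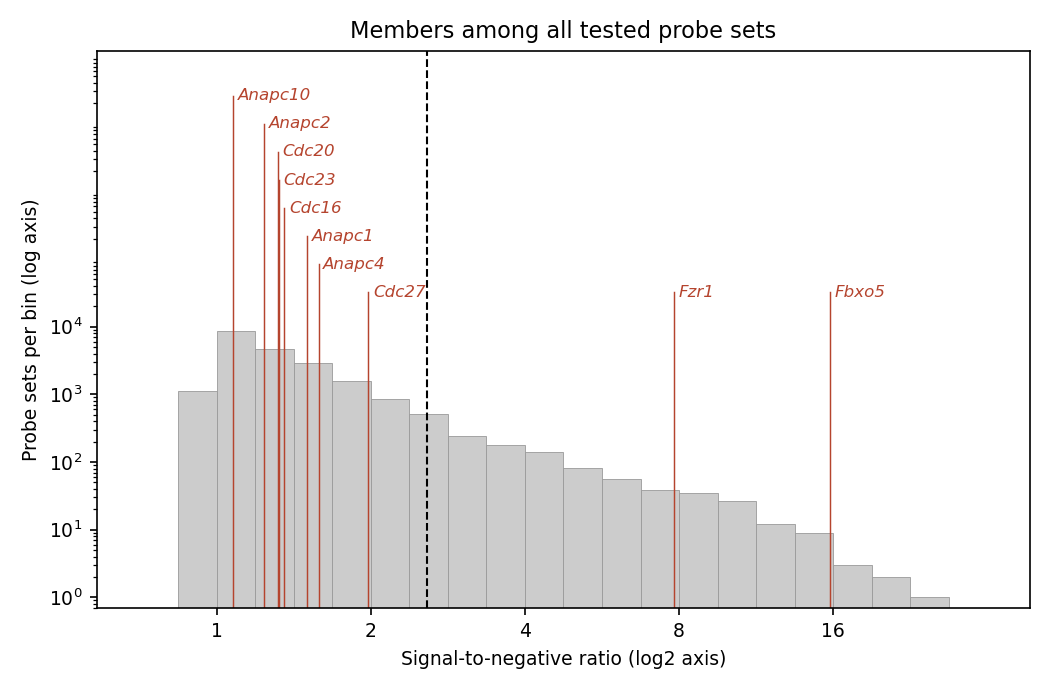
Distribution of the signal-to-negative ratio (horizontal log2 axis) for the 21044 tested probe sets, with the number per bin on a log axis, red lines at the 10 transcripts (line height only separates the names) and a dashed line at the 95th percentile, 2.57. *Fzr1* (7.82) and *Fbxo5* (15.8) lie in the right tail, and the other 8 lie left of the dashed line, between 1.08 and 1.98.

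The size of each ratio depended on the control array. Replicate 2 read higher than replicate 1 for all 10 transcripts in both groups, as did the array medians. Against control IgG replicate 1 alone the CUGBP1 IP mean of *Fbxo5* gave a ratio of 21.4, and against control IgG replicate 2 alone 12.5. For *Fzr1* these ratios were 9.54 and 6.63. For *Cdc20* they were 1.70 and 1.07, for *Anapc2* 1.50 and 1.05, and for *Anapc10* 1.24 and 0.951. The ratio of *Cdc27* was 2.66 against control IgG replicate 1 and 1.58 against control IgG replicate 2. Because a probe set without signal reads about 1 rather than 0, ratios of dim probe sets are compressed. With the receptor median of each array subtracted, the ratio was 41.7 for *Fbxo5*, 17.9 for *Fzr1*, 3.31 for *Anapc4*, 2.90 for *Cdc27* and 1.64 for *Cdc20*, and the 95th percentile over probe sets that exceeded background on every array was 8.30. These subtracted ratios rest on small control values: against control IgG replicate 1 or replicate 2 alone, that of *Fbxo5* was 144 or 24.4, that of *Fzr1* 31.8 or 12.4, that of *Anapc4* 7.93 or 2.09, that of *Cdc27* 5.75 or 1.94 and that of *Cdc20* 3.06 or 1.12.

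Relative to the array as a whole, the differences were smaller. The median log2 difference over all tested probe sets was 0.29, and 0.02 with arrays divided by their medians. On that scale *Fbxo5* had a log2 difference of 3.70, *Fzr1* 2.67 and *Cdc27* 0.69. The other subunits ran between -0.16 for *Anapc10* and 0.38 for *Anapc4*, and *Cdc20* had 0.15. With quantile normalization *Fbxo5* had 3.09 and *Fzr1* 1.77, the 2 called members, while *Cdc27* had -0.23 and *Anapc4* 0.03. Groups were then apart, with CUGBP1 IP higher, for *Fbxo5* and *Fzr1* only, where 19.9% of all probe sets were so separated. They were apart with CUGBP1 IP lower for *Cdc20* and *Cdc23*, 2 of 10 against 23.1% of all probe sets.

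**Figure D4:**
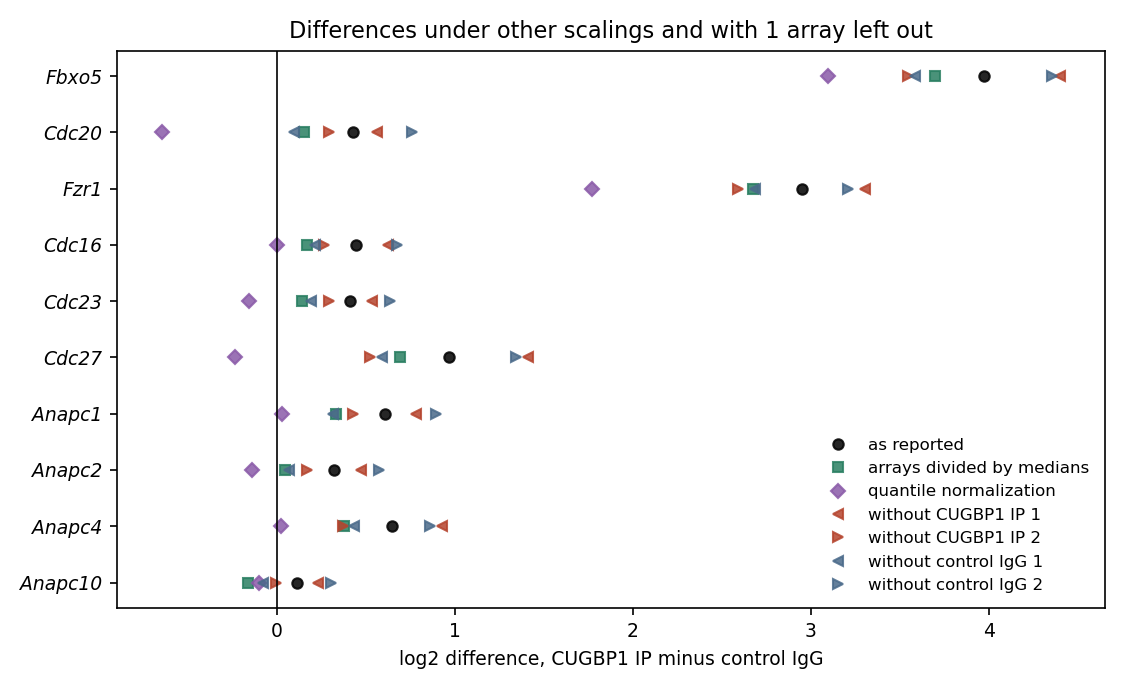
Log2 differences of the 10 transcripts, CUGBP1 IP minus control IgG, as reported (black), with 2 other scalings (green squares and purple diamonds) and with each array left out (triangles). *Fbxo5* stays between 3.09 and 4.40 and *Fzr1* between 1.77 and 3.30, whereas *Cdc20*, *Cdc23*, *Cdc27*, *Anapc2* and *Anapc10* fall on both sides of 0.

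Other transcripts of the pathway were read from lists of names. Their counts are to be read against all tested probe sets, of which limma called 1.95% higher, 28.6% were higher at an unadjusted p under 0.05 and 5% were by construction in the top 5%. None of the 7 remaining subunit genes of the APC/C was called by limma (0), 2 of 7 had an unadjusted p under 0.05, near the share of all probe sets, and 0 were in the top 5%. Their median ratio was 1.72, compared with 1.22 for all tested genes, many of them at background. Their median log2 difference was 0.92, and 6 of the 7 were above background on all 4 arrays. Over all probe sets above background on all 4 arrays the median log2 difference was 0.73. *Anapc15* led them with 3.11 and 4.06 in CUGBP1 IP, against 1.09 and 2.22 in control IgG (a ratio of 2.17 with limma adjusted p = 0.118), and its dimmer probe set had a ratio of 1.59. *Anapc16* followed with a ratio of 1.82 (limma adjusted p = 0.344), and *Anapc7*, another repeat subunit, was lowest with 1.35 (0.206).

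Among the conjugating enzymes that supply ubiquitin to the complex, *Ube2c*, which starts the chains, was the most enriched. It read 13.49 and 19.35 in CUGBP1 IP, against 1.53 and 3.19 in control IgG, a ratio of 6.96 that was in the top 5% but missed the threshold (log2 2.87, SE 1.06, limma adjusted p = 0.0954). With replicate 1 or replicate 2 as the sole control array, the ratio was 10.7 or 5.15. *Ube2d1* had a ratio of 2.55, just under the limit of the top 5%. With control IgG replicate 1 as the sole control array its ratio was 6.15, above the limit of 3.97 for that setting, and with replicate 2 it was 1.61, below the limit of 2.12. *Ube2s*, which extends the chains, had 1.76 (3.56 and 1.17 against control IgG replicate 1 and replicate 2 alone). The control IgG arrays of *Ube2s* read 4.17 and 12.7, and the higher of these was above the lower CUGBP1 IP array at 9.97. The dimmer probe set of *Ube2s* had a ratio of 1.71 and also overlapping groups. None of these 3 was called by limma (0), and 1 of 3 had an unadjusted p under 0.05, near the 28.6% of all probe sets. All 3 were above background on all 4 arrays, and *Ube2c* alone passed the limit of 4.01 for such probe sets.

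Of 9 transcripts of other APC/C inhibitors and of the spindle checkpoint, 1 was in the top 5% and limma called 0, where it called 1.95% of all probe sets. An unadjusted p under 0.05 was reached by 4 of 9, against 28.6% of all. Of the 9, 7 were above background on all 4 arrays, and of these *Bub3* alone passed the limit of 4.01 for such probe sets. The transcript in the top 5% was *Bub3*, a checkpoint protein that takes part in the complex holding back Cdc20. It read 32.61 and 53.54 in CUGBP1 IP, against 1.53 and 4.39 in control IgG, a ratio of 14.6 close to that of *Fbxo5*. It had a larger SE, a value set by probe sets of like intensity (log2 4.01, SE 1.30, limma adjusted p = 0.0637). Against control IgG replicate 1 alone its ratio was 28.2, and against control IgG replicate 2 alone 9.81. *Trip13*, an ATPase that takes that complex apart, had a ratio of 2.13 (limma adjusted p = 0.148). *Fbxo43*, which encodes the germline relative Emi2, read 1.11 and 1.09 in CUGBP1 IP, against 1.00 and 1.06 in control IgG, and was at background on all 4 arrays.

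Of 22 measured substrate transcripts, 6 were in the top 5%, 12 had an unadjusted p under 0.05 (against 28.6% of all probe sets) and 1 was called higher (against 1.95% of all). However, 19 of the 22 were above background on all 4 arrays, where 7063 of all 19452 tested genes were. Of these only *Aurkb* and *Pttg1* passed the limit of 4.01 for such probe sets. *Nusap1*, a spindle protein, rose, with 4.47 and 6.01 in CUGBP1 IP, against 1.13 and 1.64 in control IgG (a ratio of 3.78 with limma adjusted p = 0.0373). Like every other call, this one was lost with any array left out. *Aurkb*, a mitotic kinase, read 6.03 and 13.71 in CUGBP1 IP, against 1.34 and 2.22 in control IgG (a ratio of 5.54 with limma adjusted p = 0.0730). *Pttg1*, which encodes securin, read 7.31 and 11.06 in CUGBP1 IP, against 1.22 and 2.97 in control IgG (a ratio of 4.38 with limma adjusted p = 0.0970), with 7.53 and 3.09 as its ratios to control IgG replicate 1 and replicate 2 alone. At the other end, *Cdc6*, a replication licensing factor, had a ratio of 1.09 and overlapping groups (limma adjusted p = 0.660). Among 6 transcripts for the turnover of Emi1, *Fbxw11*, an F-box protein that recognises phosphorylated Emi1, was in the top 5% with a ratio of 3.00 (limma adjusted p = 0.0727), but not against control IgG replicate 1 alone, where its ratio was 3.73 and the limit 3.97. *Rbx1*, the RING subunit of the same class of ligase, had 2.43 (limma adjusted p = 0.327), or 4.71 and 1.64 against control IgG replicate 1 and replicate 2 alone, and *Cul1*, its cullin, 1.24 (0.478). The dimmer probe set of *Rbx1* had a ratio of 2.06 (limma adjusted p = 0.270). None of these 6 was called by limma (0, against 1.95% of all probe sets), and 4 had an unadjusted p under 0.05 (against 28.6% of all). Of the 6, 5 were above background on all 4 arrays, and none of them reached the limit of 4.01.

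**Figure D5:**
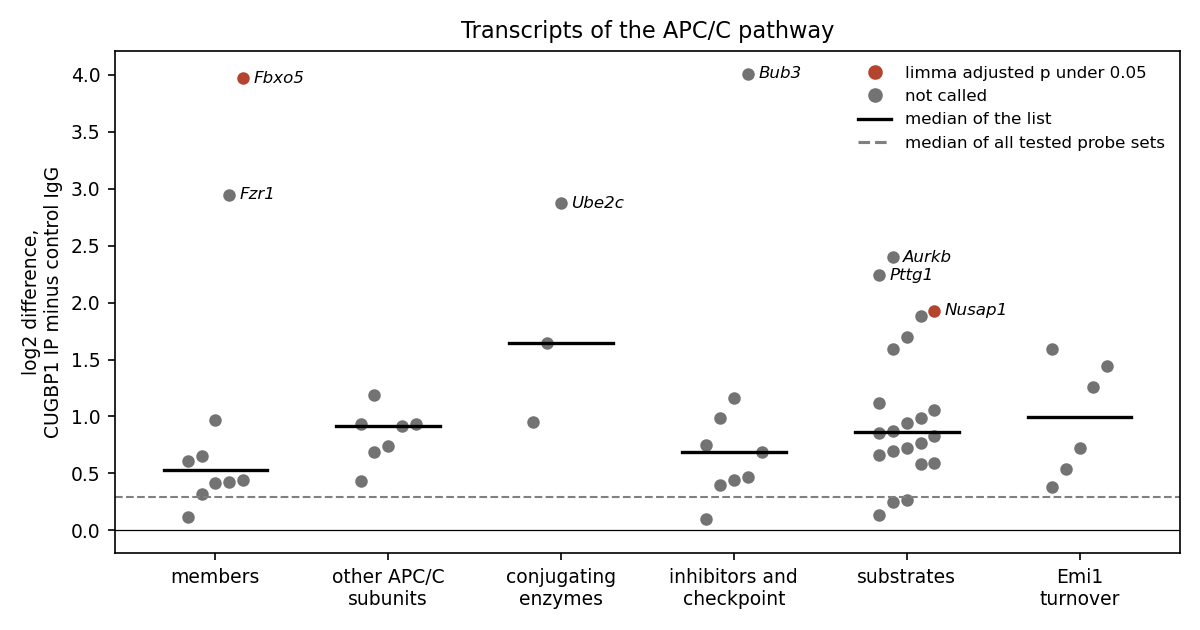
Log2 differences, CUGBP1 IP minus control IgG, of the 10 members and of the other pathway lists, with 1 point per gene (its brightest probe set), a black line at each list's median and a dashed line at the median of all tested probe sets, 0.29. *Fbxo5* and *Nusap1* were called (red), and *Bub3*, at 4.01, lies as high as *Fbxo5* without being called.

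The transcripts whose values across the 4 arrays were most like those of *Fbxo5* were *Slc25a1*, *Jpt1*, *Ei24*, *Sfxn3* and *Etfrf1*. Likeness was the distance between log2 values centred on each probe set's own mean, over 11647 probe sets above background on both CUGBP1 IP arrays, and it ran between 0.18 for *Slc25a1* and 0.34 for *Etfrf1*. *Slc25a1*, which encodes the mitochondrial citrate carrier, read 25.03 and 38.26 in CUGBP1 IP, against 1.50 and 2.44 in control IgG. *Jpt1* read 19.79 and 37.07 in CUGBP1 IP, against 1.55 and 2.55 in control IgG. As in *Fbxo5*, replicate 2 was the higher array of each group in all 5, which follows from their choice by likeness on these arrays. The array medians were also higher in replicate 2 of both groups.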

How the data were processed

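RNA of 2 CUGBP1 IP and 2 control IgG samples had been hybridized to Affymetrix Mouse Gene 1.0 ST arrays, 1 array per immunoprecipitate. The deposited values are linear intensities that the authors divided by each array's 5th percentile. How probes were summarised and whether background was removed is not given in the sources used here. Of 25175 probe sets, the platform annotation gave 21044 exactly 1 gene (tested), 1492 several and 2639 none. Symbols of 20959 were updated by gene identifier. Replicate numbers come from the sample titles, and nothing states separate cultures, so p-values measure only spread among these samples, which may be technical. In the main limma fit that spread was pooled completely over probe sets of like intensity. An SE, interval or p-value there does not reflect how far a transcript's own replicates lay apart.

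The log2 values were compared with limma 3.58.1 in R 4.3.3 (lmFit, eBayes with intensity trend, two-sided, Benjamini-Hochberg over all tested probe sets, threshold 0.05). The script was first tested on simulated data with independent arrays. That test does not show how p-values behave where same-numbered arrays deviate together. The number of arrays limits the precision, since an exact permutation test of 2 against 2 cannot go below p = 0.333. A value above the 95th percentile of receptor probe sets counted as above background. For pathway lists the brightest probe set stood for a gene, and the text names genes called by limma and, per list, those with the 2 highest ratios and the lowest ratio. The 5 genes nearest to *Fbxo5* were also named. Members and lists were chosen with earlier results of these data known. Alternatives were other scalings, an offset, filters on dim probe sets, no trend, the replicate number as a block and each array left out. No sequence is printed, since transcript sequences were not used here.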

Additional observations from a re-analysis of the deposited data

How the results depend on the processing

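limma called 411 probe sets higher and 29 lower. The higher count was 1477 with arrays divided by their medians, 763 with an offset of 1 and 270 among probe sets above background on all 4 arrays. The lower count was 51 with arrays divided by their medians, 13 with quantile normalization, 44 over all probe sets of the table, and 0 among probe sets above background on all 4 arrays or on at least 2 arrays. Without the intensity trend limma called 0 higher and 0 lower, with 4757 at an unadjusted p under 0.05. With any array left out it called 0 in either direction, with 1062 to 6085 at an unadjusted p under 0.05, in a fit that has 1 residual degree of freedom and assumes that the lone array varies like the other group.

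Of the 10 members, 1 was called higher, 2 (*Fbxo5* and *Fzr1*) with either other scaling, the offset or either filter, and 0 without the trend or with any array left out. *Fbxo5* had a log2 difference of 3.97 without the trend (limma adjusted p = 0.143) and of 3.54 to 4.40 with an array left out. The groups did not overlap, with CUGBP1 IP higher, for 7 members and 66.3% of all probe sets, for 5 and 31.8% with arrays divided by their medians, and for 2 and 19.9% with quantile normalization, settings chosen for this count after seeing the data. With quantile normalization the difference turned to -0.64 for *Cdc20*, -0.15 for *Cdc23*, -0.23 for *Cdc27*, -0.14 for *Anapc2* and -0.10 for *Anapc10*. *Anapc10* was also at -0.16 with arrays divided by their medians, -0.0059 without CUGBP1 IP replicate 2 and -0.077 without control IgG replicate 1, with 0.30 as the highest value when an array was left out. The cause of these changes was not tested.

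Both groups carry replicate numbers 1 and 2, and same-numbered arrays deviated together (r = 0.639 across probe sets), but 2 pairs cannot show that the numbers pair the samples. With the replicate number as a block limma called 11809 probe sets higher and 40 lower, and 8 of the 10 members higher, all but *Cdc20* and *Anapc10*. The count of members in the top 5% of ratios was 2 under every alternative run. *Cdc16* and *Anapc10* could not be fitted among probe sets above background on all 4 arrays, since they were not above it on each.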
